A study of Homo sapiens with 30 samples.

Results

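The genes described here are 36 listed genes of glycolysis and of the response to low oxygen, followed across 30 RNA libraries of HT29 cells, a human colorectal adenocarcinoma line. A row was found for 35 of the 36 among the 60675 genes of the deposited table, and INSIG2-AS1 was not matched. By role they were 17 glycolytic enzymes, 6 genes of glucose and lactate transport and flux control, and 12 genes of oxygen sensing and other hypoxia-induced genes. These 12, called the other hypoxia-induced genes below, include the regulator HIF1A in every count and median. After a filter on low counts, 34 were tested. The filter left out the glucose transporter SLC2A3, which was at 0 in 29 libraries and had 1 count in all.

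Cells were treated for 24 h with 70% ethanol extracts of the herbal formulas Banhasasim-tang, Sayeok-tang, Bojungikgi-tang or Yijung-tang at 20, 100 or 500 µg/mL, or with the solvent DMSO, which the label gives as 0.1% and the series text as 2%. There were 3 vehicle libraries, 3 per dose for Sayeok-tang and Bojungikgi-tang, 2 per dose for Banhasasim-tang (replicates 2 and 3) and 1 per dose for Yijung-tang (replicate 3). All come from the same cell line. The labels do not state whether replicates came from different cultures, so the p-values may rest on technical spread alone. The vehicle carries a sample code of its own, so code and vehicle cannot be told apart. Banhasasim-tang and Yijung-tang share one series of codes and Sayeok-tang and Bojungikgi-tang another, so between these pairs code and extract cannot be told apart.

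Glycolysis splits glucose into pyruvate, and lactate dehydrogenase turns pyruvate into lactate when it is not burned in mitochondria. At low oxygen the prolyl hydroxylases EGLN1 and EGLN3 no longer mark HIF1A for degradation, and the HIF complex binds hypoxia response elements and switches on glycolytic genes together with genes for vessel growth, acid export, mitophagy and collagen hydroxylation. Many colorectal cancer lines run glycolysis at high rates also with oxygen present, and HIF1A is controlled mainly as a protein, which these data do not measure.

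The hypoxia response element has the core ACGTG or GCGTG, searched on both strands. Promoter sequences from RefSeq (GRCh38.p14, 250 bases before to 50 after a start) were found for 31 members. The core was in 40 of their 59 promoters (67.8%), against 48.4% of all 35116 promoters of that length. The share was 62.2% for the enzymes, 72.7% for transport and flux control and 81.8% for the other hypoxia-induced genes. Counted by gene, 93.5% of the 31 members had a core in at least 1 promoter, against 52.4% of all genes with an entry. The E-box CACGTG, which holds ACGTG on both strands and so counts as 2 cores, was in 13.6% of the members' promoters and in 7.26% of all. The sites below are shown because they belong to members whose RNA differed between 500 and 20 µg/mL. Of 14 such members 12 had a promoter entry, and 10 had a core in the 250 bases before a start. The share of all genes was not taken for these 250 bases alone. For each of the 10, the 30 bases around the core nearest to a start are given 5′ to 3′ on the gene's strand, with cores in capitals. SLC2A3, VEGFA, NDRG1, BNIP3L and INSIG2-AS1 were not matched.
HK2: aatggGCGTGcgCACGTcactgatccggag
PFKP: acattctcagtGCGTGgGCGTGaaccccac
ALDOA: ggcagggaggcCACGTGatccgagtcccct
ALDOC: ccccggaggagtCACGTagctctgcgacat
ENO2: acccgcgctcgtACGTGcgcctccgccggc
LDHA: CGTGggttcccgCACGTccgccggcccccc
SLC16A3: cgtcgtgggtggGCGTGgagcttgcacagc
PFKFB3: accctcctcccCACGTGgaagggggctggg
PFKFB4: tgagttgggcatGCGTGgtcggaggccggg
CA9: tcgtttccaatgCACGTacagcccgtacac

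By position and strand, with the distance from the first base of the nearest core to the start, these sites are chr2:74834067-74834096 (+, 48 bases) for HK2, chr10:3104579-3104608 (+, 13 bases) for PFKP, chr16:30064374-30064403 (+, 111 bases) for ALDOA, chr17:28576906-28576935 (-, 28 bases) for ALDOC, chr12:6914450-6914479 (+, 118 bases) for ENO2, chr11:18394478-18394507 (+, 73 bases) for LDHA, chr17:82234865-82234894 (+, 22 bases) for SLC16A3, chr10:6202813-6202842 (+, 107 bases) for PFKFB3, chr3:48556952-48556981 (-, 166 bases) for PFKFB4, chr9:35673898-35673927 (+, 18 bases) for CA9.
The cores of HK2 and PFKP lie beside another core in the same 30 bases, the LDHA site opens inside a second core whose first base lies outside it, and those of ALDOA and PFKFB3 are E-boxes. A match is a description of letters and was not tested as a binding site.

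The libraries held between 36273894 and 71625621 counts, so 3 counts correspond to between 0.0419 and 0.0827 CPM, the counts scaled to a common library total. Some stood apart: vehicle replicate 1 had the highest share of ribosomal protein counts (6.91%) and Bojungikgi-tang 500 µg/mL replicate 2 the lowest (3.775%). Counts of MT-RNR1 and MT-RNR2, the mitochondrial ribosomal RNAs, took 12.862% and 9.408% of counts with Banhasasim-tang at 500 µg/mL, 1.901% and 1.914% at its 100 µg/mL dose, and 0.914% to 1.383% elsewhere. All 10 markers of colon epithelium were detected (KRT8 at 4904 to 7437 CPM, CDX1 at 0.832 to 1.64 CPM). Of the leukocyte markers, CD3E was at 0 in 23 libraries, while LYZ was at 1575 to 2019 CPM.

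In vehicle cells the most abundant members were enzymes, but not all enzymes were abundant. Per kilobase of merged exon, GAPDH stood at 967 CPM, ENO1 at 346, ALDOA at 345, TPI1 at 331, LDHB at 274, PKM at 272 and LDHA at 158. The glucose importer SLC2A1 stood at 119 CPM per kilobase and CA9, the membrane carbonic anhydrase that acidifies the outside of hypoxic tumour cells, at 44.8. Below both stood the enzymes PFKP (25.9), HK1 (24.2), PFKM (10.0), HK2 (9.88), PFKL (9.8) and ALDOC (6.46). The isoenzyme ENO2 stood at 4.23, VEGFA, the vessel growth factor, at 4.86, and HIF1A, the oxygen-labile subunit of HIF, at 21.0. The lowest of the tested members were the bisphosphatase and kinase PFKFB4 (0.673), the mitophagy receptor BNIP3 (0.596) and the HIF target ANKRD37 (0.36). BNIP3 has 39 pseudogene copies, which together held 61.0% as many counts as BNIP3, so its values are uncertain. In GENCODE 29, 22 members overlap a gene on the opposite strand and 18 overlap one on their own strand, among them ENO2 with LRRC23, PGK1 with ATP7A, PFKFB4 with UCN2 and EGLN3 with SPTSSA, so reads in the shared part are uncertain. The kit marks strand but the strand setting of the counting is not given in the sources used here. The partners with the most counts were CSNK1D over SLC16A3 (172 CPM), SENP1 over PFKM (42.4 CPM) and ARHGEF39 over CA9 (25.7 CPM).

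**Figure D1:**
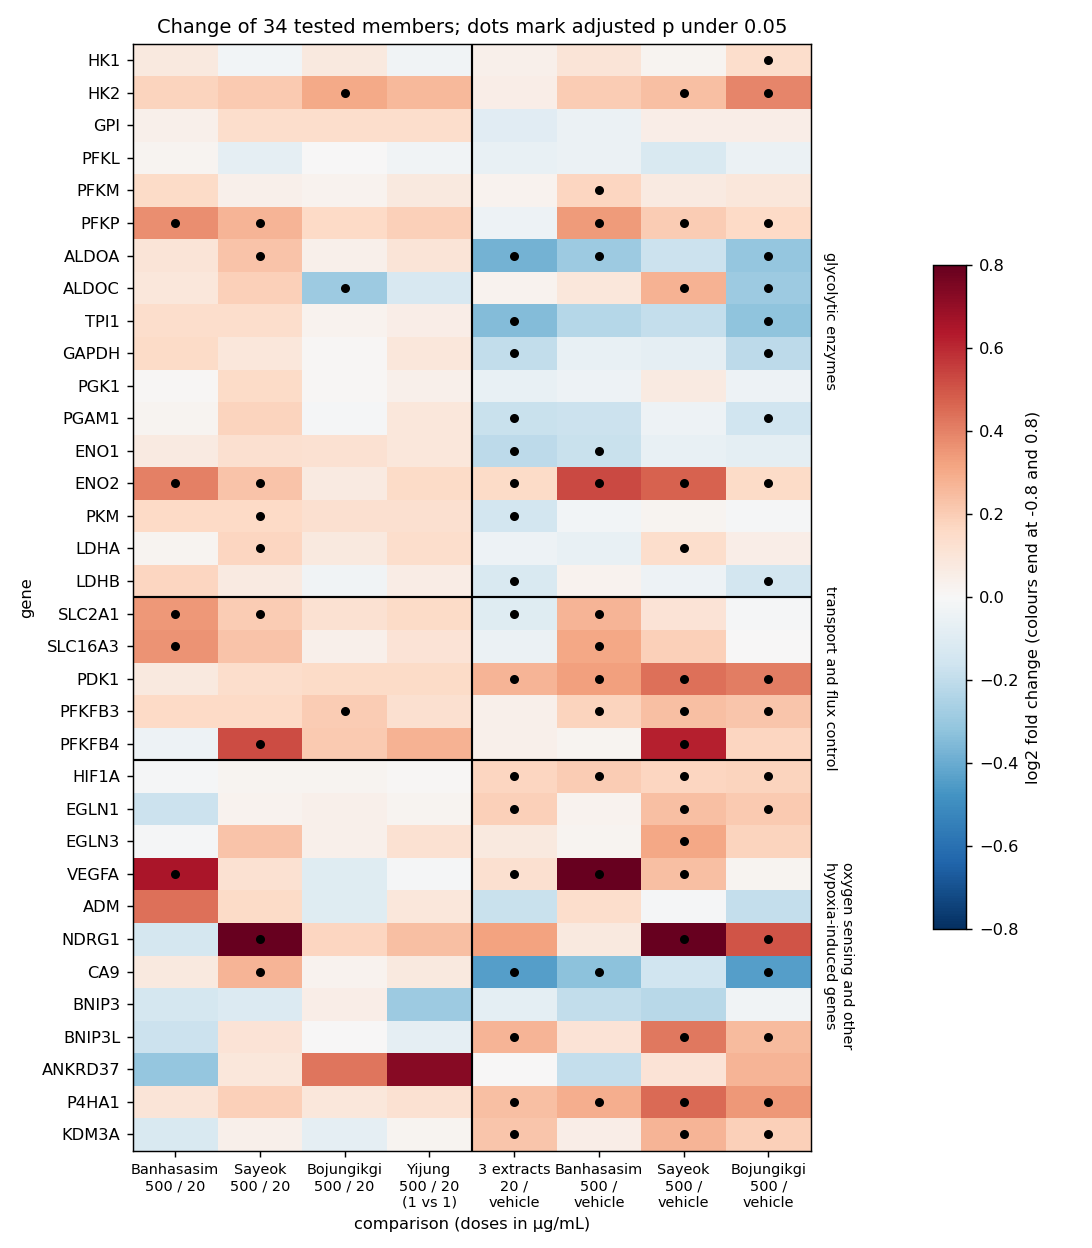
Log2 fold change of the 34 tested members (rows, by role) in 8 comparisons (columns, extract names without the ending -tang); red is higher in the first-named condition, colours end at -0.8 and 0.8, and dots mark an adjusted p under 0.05 (no test for Yijung). Left of the vertical line, the 17 enzymes are all above 0 in the Banhasasim-tang column and 8 of the 12 other hypoxia-induced genes are below 0.

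Between 20 and 500 µg/mL of Banhasasim-tang (n = 2 each), 5 of the 34 members were higher and 0 lower at an adjusted p under 0.05, against 3.82% higher and 4% lower of all 18783 genes tested. The libraries of the doses did not overlap in 25 of the 34 members and, with 2 against 2, in 52.7% of all genes. The 5 called members were PFKP and ENO2 of the enzymes, SLC2A1 and the lactate exporter SLC16A3, and VEGFA. All 17 enzymes had a positive log2 fold change with a median of 0.096, while 8 of the 12 other hypoxia-induced genes had a negative one with a median of -0.067. HIF1A was among the 8. The median of all genes was 0.005. With library sizes alone in place of TMM, that median became -0.129, the enzymes' -0.04 and the hypoxia-induced genes' -0.2. Under that scaling 12 members changed sign, 10 from the enzymes and transport and flux control. Called under it were 4 members higher and 2 lower, beside 313 higher and 2702 lower of all 18783 genes.

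VEGFA, the growth factor that draws new vessels, was at 77.9 and 77.4 CPM at 20 µg/mL, at 76.4 and 72.8 at 100 µg/mL and at 124 and 120.0 at 500 µg/mL. The vehicle libraries were at 69.4, 71.6 and 69.4 CPM. Both 500 µg/mL libraries lay above every other library in the series. VEGFA (ENSG00000112715) lies on chromosome 6 at 43770184 to 43786487, plus strand (GRCh38, GENCODE 29). The log2 fold change from 20 to 500 µg/mL was 0.65 ± 0.05 (SE; adjusted p = 6.66e-10 by edgeR's quasi-likelihood test). In a bulk library, more RNA per cell and more cells with a high level cannot be told apart.

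ENO2, an enolase isoenzyme that makes phosphoenolpyruvate, was at 19.5 and 20.0 CPM at 20 µg/mL and at 27.6 and 24.5 CPM at 500 µg/mL. ENO2 (ENSG00000111674) lies on chromosome 12 at 6913745 to 6923698, plus strand. The doses did not overlap, and it rose by 0.40 ± 0.06 (edgeR adjusted p = 2.87e-05). PFKP, the platelet isoform of phosphofructokinase, the committed step of glycolysis, was at 124 and 120.0 CPM at 20 µg/mL and at 156 and 161 CPM at 500 µg/mL. It rose by 0.37 ± 0.06 (edgeR adjusted p = 0.000105), again without overlap. The other phosphofructokinase isoforms gave 0.02 ± 0.07 for PFKL and 0.15 ± 0.05 for PFKM (edgeR adjusted p = 0.934 and 0.0597). PKM, the pyruvate kinase of most tumours, was at 2042 and 2093 CPM at 20 µg/mL and at 2356 and 2249 CPM at 500 µg/mL, a log2 fold change of 0.16 ± 0.05 that was not called (edgeR adjusted p = 0.0543), though DESeq2 called it.

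SLC2A1, the widespread glucose importer GLUT1, was at 526 and 539 CPM at 20 µg/mL and at 677 and 680.0 CPM at 500 µg/mL. SLC2A1 (ENSG00000117394) lies on chromosome 1 at 42925375 to 42959176, minus strand. The groups were apart, and it rose by 0.35 ± 0.05 (edgeR adjusted p = 8.61e-06). SLC16A3, the lactate exporter MCT4, was at 62.7 and 67.7 CPM at 20 µg/mL and at 87.9 and 79.4 CPM at 500 µg/mL. It rose by 0.36 ± 0.10 (edgeR adjusted p = 0.0321). That call was lost without the 500 µg/mL replicate 2 (0.28, adjusted p = 0.307), the 20 µg/mL replicate 2 (0.31, adjusted p = 0.242) or the 20 µg/mL replicate 3 (0.41, adjusted p = 0.0826). PDK1, the kinase that keeps pyruvate out of mitochondria, gave 0.08 ± 0.08, PFKFB3, which makes the activator of phosphofructokinase, 0.16 ± 0.06, and PFKFB4 -0.04 ± 0.14, none of them called.

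Apart from VEGFA, the oxygen-sensing and other hypoxia-induced genes were not called with Banhasasim-tang. EGLN1, the main oxygen sensor, was at 57.3 and 59.2 CPM at 20 µg/mL and at 51.1 and 52.6 CPM at 500 µg/mL, lower in both libraries (-0.17 ± 0.06, edgeR adjusted p = 0.104). The peptide hormone gene ADM was at 2.46 and 2.85 CPM at 20 µg/mL and at 3.49 and 3.73 CPM at 500 µg/mL, higher in both (0.44 ± 0.16, adjusted p = 0.112). BNIP3L, a mitophagy receptor, was at 15.7 and 15.9 CPM and then at 14.2 and 13.9 CPM (-0.17 ± 0.09, adjusted p = 0.306). None of these 3 passed the test. KDM3A, an oxygen-dependent histone demethylase, was at 40.6 and 40.3 CPM and then at 35.1 and 39.3 CPM (-0.12 ± 0.08, adjusted p = 0.428). NDRG1, a stress-induced gene of differentiated epithelium, went from 15.9 and 16.6 CPM to 15.9 and 13.6 CPM (-0.14 ± 0.18, adjusted p = 0.714). HIF1A itself gave -0.01 ± 0.07 and CA9 0.08 ± 0.09.

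The mitochondrial ribosomal RNA share moved with this dose. With those counts left out, the same 5 members were called, VEGFA again by 0.65, and the enzyme median was 0.092 beside 0.001 for all genes. The colon epithelium markers summed to 10225 and 10302 CPM at 20 µg/mL and to between 10432 and 11064 CPM at 500 µg/mL, and those of fibroblasts and endothelium stayed between 3.02 and 3.25 CPM. The part of the epithelial markers in these results was not tested.

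Between 20 and 500 µg/mL of Sayeok-tang (n = 3 each), 9 members were higher and 0 lower, against 1.14% and 2.03% of all genes. The libraries of the doses did not overlap in 21 members and in 22% of all genes. The called members were 5 enzymes (PFKP, ALDOA, ENO2, PKM and LDHA), SLC2A1 and PFKFB4, and NDRG1 and CA9. Enzymes and other hypoxia-induced genes stood on the same side of 0: 15 of 17 enzymes had a positive log2 fold change (median 0.151), as did 5 of 5 transport and flux genes (median 0.198) and 11 of 12 hypoxia-induced genes (median 0.115). The median of all genes was 0.004. PFKP, ENO2, SLC2A1 and NDRG1 were called whichever library was left out. Without a low-count filter, ENO2, PKM, LDHA and SLC2A1 were no longer called, while HK2 and SLC16A3 were. The count of members was 5 without the 500 µg/mL replicate 1 and 5 without the 20 µg/mL replicate 1. ALDOA, PKM, LDHA and CA9 were not called in 5 of the 6 refits with a library left out, and PFKFB4 was not called without the 20 µg/mL replicate 2 (0.42, edgeR adjusted p = 0.0543).

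NDRG1 was at 18.9, 18.6 and 18.5 CPM at 20 µg/mL and at 19.9, 16.6 and 15.6 CPM at 100 µg/mL. At 500 µg/mL it was at 37.1, 33.4 and 26.8 CPM, above every other library of the series. NDRG1 (ENSG00000104419) lies on chromosome 8 at 133237171 to 133302022, minus strand. It had the largest change among the tested members in this extract, 0.80 ± 0.14 (1.74-fold; edgeR adjusted p = 0.00193). CA9 was at 55.0, 57.9 and 53.3 CPM at 20 µg/mL and at 68.8, 67.3 and 64.1 CPM at 500 µg/mL, without overlap. It rose by 0.27 ± 0.07 (edgeR adjusted p = 0.0339), to levels that overlapped the lowest vehicle library (vehicle 87.2, 71.7 and 65.3 CPM). The antisense partner ARHGEF39 overlaps CA9.

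P4HA1, which hydroxylates collagen prolines, was at 38.5, 39.1 and 39.9 CPM at 20 µg/mL and at 44.7, 45.0 and 43.9 CPM at 500 µg/mL (0.19 ± 0.06, edgeR adjusted p = 0.0966). EGLN3, an oxygen sensor that HIF itself induces, was at 11.2, 10.6 and 10.3 CPM and then at 13.2, 13 and 11.4 CPM (0.23 ± 0.08, adjusted p = 0.133). VEGFA was at 76.1, 78.4 and 74.8 CPM and then at 86.2, 79.3 and 82.9 CPM (0.12 ± 0.04, adjusted p = 0.15). None of these 3 was called. HIF1A gave 0.02 ± 0.06, EGLN1 0.03 ± 0.05 and KDM3A 0.04 ± 0.07.

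Among the enzymes, PFKP was at 119, 125 and 114 CPM at 20 µg/mL and at 154, 138 and 139 CPM at 500 µg/mL, and rose by 0.27 ± 0.05 (edgeR adjusted p = 0.00115). ENO2 was at 21.2, 21.7 and 21.2 CPM and then at 26.1, 24.9 and 24.1 CPM, and rose by 0.23 ± 0.05 (edgeR adjusted p = 0.00345). PKM was at 2089, 2200.0 and 2097 CPM and then at 2421, 2364 and 2331 CPM, and rose by 0.16 ± 0.04 (edgeR adjusted p = 0.0303). ALDOA, the aldolase that cuts fructose bisphosphate, lay at 969 to 1058 CPM and then at 1149 to 1265 CPM (0.23 ± 0.06, edgeR adjusted p = 0.0337). LDHA, the subunit that favours lactate formation, lay at 935 to 1001 CPM and then at 1062 to 1110.0 CPM (0.17 ± 0.05, edgeR adjusted p = 0.0408). Its partner subunit LDHB gave 0.07 ± 0.05 (adjusted p = 0.661).

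SLC2A1 was at 535, 539 and 514 CPM at 20 µg/mL and at 616, 603 and 602 CPM at 500 µg/mL. It rose by 0.20 ± 0.04 (edgeR adjusted p = 0.00212), with the doses apart. PFKFB4, which sets the level of fructose 2,6-bisphosphate, was at 4.7, 3.82 and 4.71 CPM and then at 6.64, 6.22 and 6.03 CPM. It rose by 0.52 ± 0.11 (edgeR adjusted p = 0.00444), also without overlap. SLC16A3 was at 71.5, 64.0 and 60.8 CPM and then at 87.6, 62.4 and 81.3 CPM, where replicate 2 of the 500 µg/mL libraries fell among the 20 µg/mL libraries (0.23 ± 0.08, adjusted p = 0.162).

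**Figure D2:**
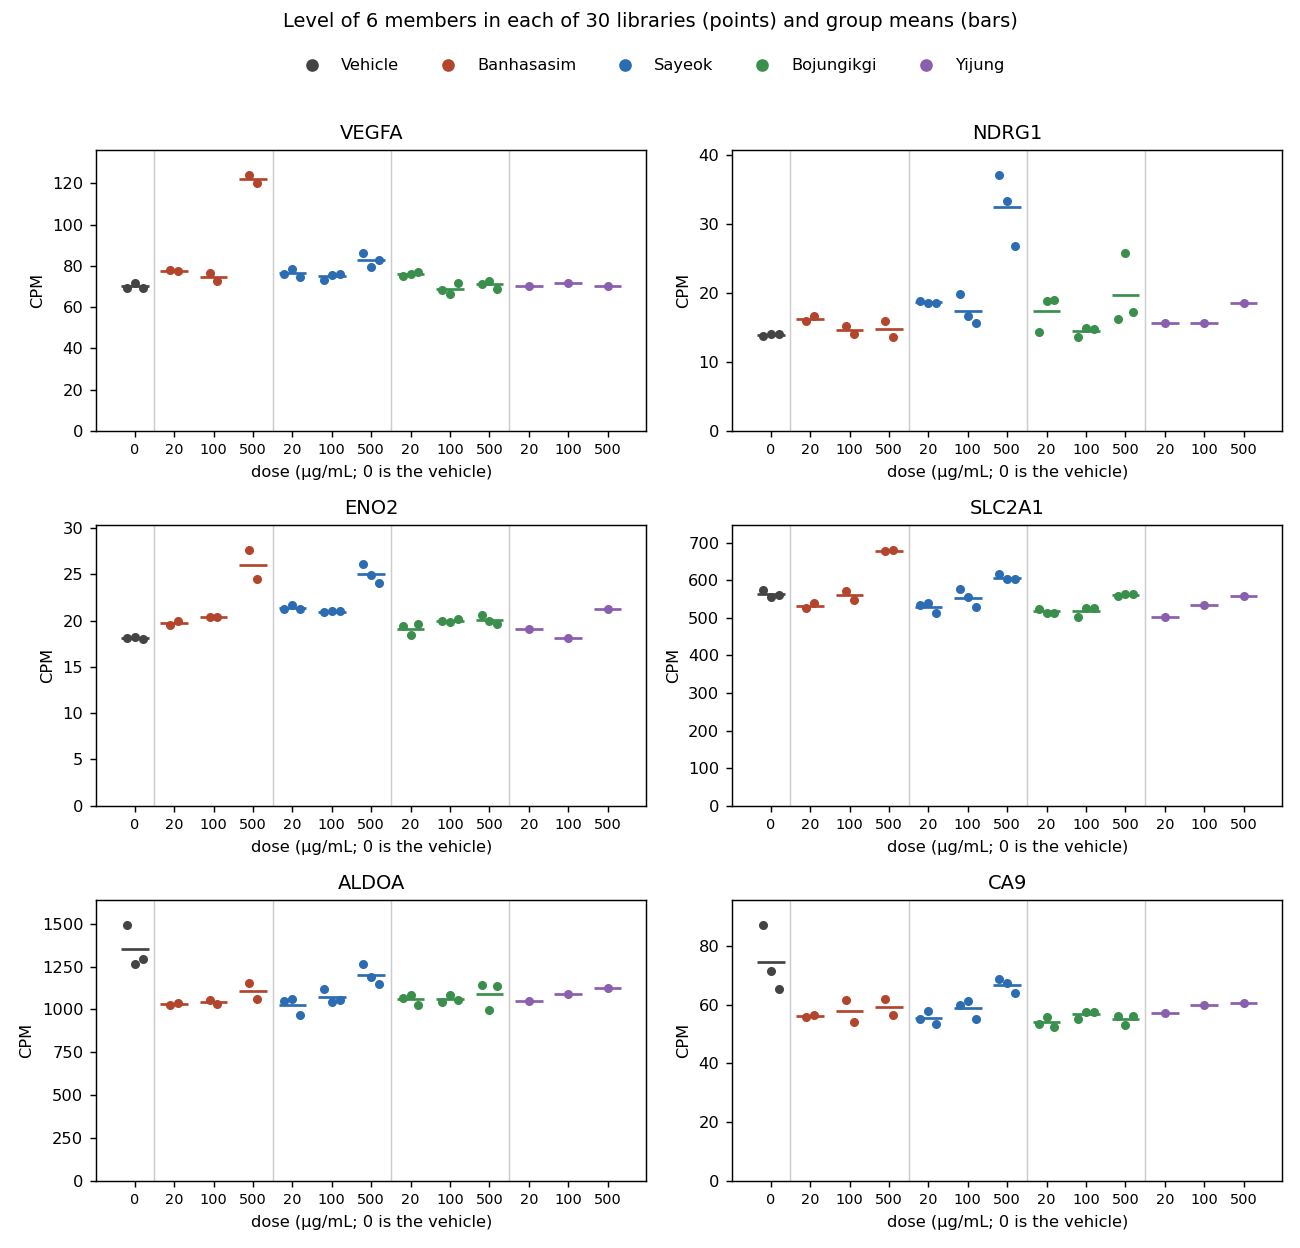
CPM (vertical axes, from 0) of 6 members in each of the 30 libraries (points) with group means (bars), by extract (colour, names without the ending -tang) and dose in µg/mL. VEGFA is high in the 2 Banhasasim-tang 500 µg/mL libraries (124 and 120.0 CPM), NDRG1 in the 3 Sayeok-tang 500 µg/mL libraries (26.8 to 37.1 CPM), and ALDOA and CA9 are highest in vehicle replicate 1 (1492 and 87.2 CPM).

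Between 20 and 500 µg/mL of Bojungikgi-tang (n = 3 each), 2 members were higher and 1 lower, against 0.602% and 1.16% of all genes. The libraries of the doses did not overlap in 10 members and in 18.7% of all genes. The called members were HK2 and PFKFB3 (higher) and ALDOC (lower). The medians were 0.04 for the enzymes, 0.15 for transport and flux control and 0.033 for the other hypoxia-induced genes, beside 0.001 for all genes. Of the 12 hypoxia-induced genes 0 were called by edgeR, with 2 at an unadjusted p under 0.05, beside 2428 of all 18783 genes. The calls rested on few libraries: 0 members were called without the 500 µg/mL replicate 2, the 20 µg/mL replicate 2 or the 20 µg/mL replicate 3, and 1 without the 500 µg/mL replicate 3 or the 20 µg/mL replicate 1. PFKFB3 was lost in each of the 6 refits that left out a library (adjusted p between 0.0744 and 0.187).

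HK2, the inducible hexokinase that traps glucose in the cell, was at 67.1, 61.0 and 63.6 CPM at 20 µg/mL and at 72.8, 87.2 and 76.4 CPM at 500 µg/mL. The doses did not overlap, and HK2 rose by 0.30 ± 0.06 (edgeR adjusted p = 0.009). Without the 500 µg/mL replicate 2, its highest library, the value was 0.22 (adjusted p = 0.0787). ALDOC, a minor aldolase, was at 18.2, 18.4 and 19.9 CPM and then at 16.1, 14.7 and 15.4 CPM, and fell by 0.29 on the log2 scale (SE 0.07, edgeR adjusted p = 0.0356). PFKFB3 was at 33.8, 35.3 and 34.9 CPM and then at 39.2, 41.5 and 39.0 CPM, and rose by 0.20 ± 0.05 (edgeR adjusted p = 0.0426).

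Other members were not called by edgeR. GPI, which isomerises glucose phosphate, was at 700.0, 690.0 and 689 CPM at 20 µg/mL and at 742, 822 and 732 CPM at 500 µg/mL (0.14 ± 0.04, edgeR adjusted p = 0.0902). SLC2A1 was at 524, 514 and 514 CPM and then at 559, 564 and 563 CPM (0.12 ± 0.04, adjusted p = 0.122). VEGFA was at 75.3, 75.9 and 77.0 CPM and then at 71.4, 72.7 and 68.9 CPM (-0.10 ± 0.04, adjusted p = 0.269). PFKP gave 0.16 ± 0.05 (adjusted p = 0.0992) and PKM 0.13 ± 0.04 (adjusted p = 0.102). DESeq2 called GPI, SLC2A1 and PKM. NDRG1 was at 14.4, 18.8 and 19.0 CPM and then at 16.2, 25.8 and 17.2 CPM, where only replicate 2 was high (0.17 ± 0.14, adjusted p = 0.677). ANKRD37 was at 0.797, 1.1 and 0.595 CPM and then at 1.18, 1.06 and 1.15 CPM, with overlap (0.43 ± 0.20, adjusted p = 0.368). P4HA1 gave 0.09 ± 0.06 and KDM3A -0.07 ± 0.06.

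At 100 against 20 µg/mL, edgeR called 0 of 34 members in any of the 3 extracts. The background was 0.0799% higher and 0.00532% lower with Banhasasim-tang, 0% and 0% with Sayeok-tang, and 0% and 0.0106% with Bojungikgi-tang. At an unadjusted p under 0.05 there were 0, 1 and 1 members, beside 516, 885 and 435 of all 18783 genes. DESeq2 also called 0 members in each. The member medians were 0.029, 0.014 and 0.001. VEGFA in Bojungikgi-tang at 100 µg/mL was at 68.4, 66.2 and 71.9 CPM, below its 3 libraries at 20 µg/mL.

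For Yijung-tang (1 library per dose, no test), log2 ratios of 500 to 20 µg/mL were taken on CPM plus 0.5. Past 1.25-fold there was 1 member higher and 0 lower, against 2.69% and 4.23% of all genes. It was ANKRD37, at 0.382, 0.816 and 0.959 CPM at the 3 doses (0.73 from 20 to 500 µg/mL). The medians were 0.086 for the enzymes (14 of 17 positive), 0.148 for the 5 transport and flux genes (5 of 5) and 0.052 for the other hypoxia-induced genes (9 of 12), beside 0.005 for all genes. HK2 was at 59.4 and then 71.1 CPM (0.26), PFKFB4 at 3.42 and 4.25 CPM (0.28), SLC2A1 at 502 and 557 CPM (0.15), NDRG1 at 15.6 and 18.6 CPM (0.24) and VEGFA at 70.5 and 70.2 CPM (-0.01). Without replicates the error of these ratios could not be estimated.

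**Figure D3:**
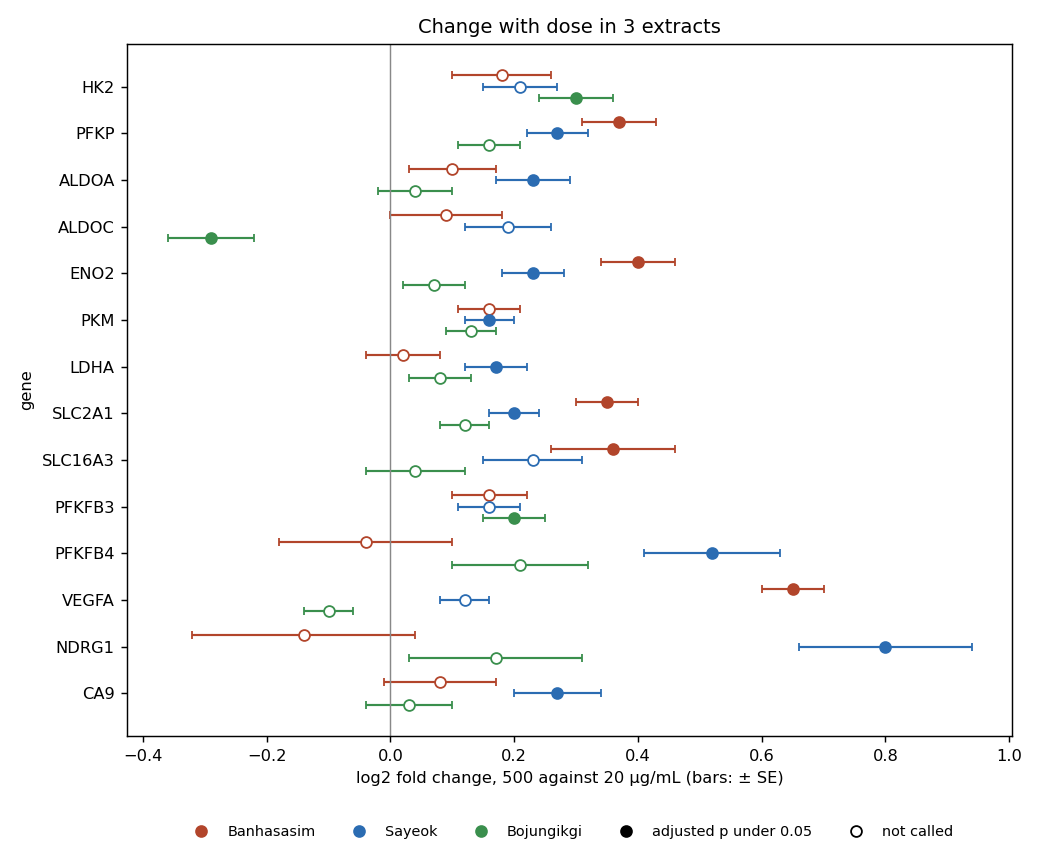
Log2 fold change from 20 to 500 µg/mL (horizontal axis, bars ± SE) of the 14 members called in at least 1 of 3 extracts (names without the ending -tang); filled points passed an adjusted p under 0.05. VEGFA lies at 0.65 with Banhasasim-tang and at -0.10 with Bojungikgi-tang, and NDRG1 at 0.80 with Sayeok-tang and at -0.14 with Banhasasim-tang.

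The extracts were then compared with each other by testing the difference between their changes from 20 to 500 µg/mL. The tests share extracts in pairs and are not independent. Banhasasim-tang minus Sayeok-tang gave 1 member higher and 0 lower, against 0.745% and 0.298% of all genes. It was VEGFA, which changed by 0.65 with Banhasasim-tang and 0.12 with Sayeok-tang, a difference of 0.53 ± 0.06 (edgeR adjusted p = 6.91e-06). NDRG1 differed the other way, by -0.95 ± 0.23 (edgeR adjusted p = 0.0544). It missed the threshold here and passed it under 6 other settings and without the Sayeok-tang 500 µg/mL replicate 3, where 2 members were called. The median difference was -0.004 for the enzymes and -0.174 for the 12 hypoxia-induced genes, of which 10 were negative, beside -0.001 for all genes. With library sizes alone these medians were -0.114, -0.281 and -0.108.

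Banhasasim-tang minus Bojungikgi-tang gave 3 members higher and 0 lower, against 1.31% and 0.745% of all genes. VEGFA differed by 0.75 ± 0.06 (edgeR adjusted p = 2.11e-08). ENO2, at 20.6, 19.9 and 19.6 CPM with Bojungikgi-tang at 500 µg/mL, differed by 0.33 ± 0.07 (edgeR adjusted p = 0.0144). SLC2A1 differed by 0.23 ± 0.06 (edgeR adjusted p = 0.0398). VEGFA was called in every refit with a library left out. ENO2 and SLC2A1 were both lost without the Banhasasim-tang 500 µg/mL replicate 2 (0.25, adjusted p = 0.192, and 0.24, adjusted p = 0.133), the 20 µg/mL replicate 2 (0.31, adjusted p = 0.0886, and 0.21, adjusted p = 0.185) or the 20 µg/mL replicate 3 (0.35, adjusted p = 0.0518, and 0.25, adjusted p = 0.105), where 1 member was called. SLC2A1 was lost without 6 further libraries (adjusted p between 0.0503 and 0.0919).

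Sayeok-tang minus Bojungikgi-tang gave 0 members by edgeR, against 0.0213% higher and 0.00532% lower of all genes. At an unadjusted p under 0.05 in edgeR there were 7 members, beside 867 of all 18783 genes. DESeq2 called 1 member (ALDOC), beside 10 of all genes. ALDOC differed by 0.48 ± 0.10 (edgeR adjusted p = 0.161) and NDRG1 by 0.63 ± 0.20 (adjusted p = 0.882). These misses do not show that the extracts act alike.

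The vehicle libraries differed from treated cells already at the lowest dose. The mean of the 3 replicated extracts at 20 µg/mL (8 libraries) against the vehicle gave 8 members higher and 9 lower, against 13.7% and 15.2% of all genes. The libraries of the groups did not overlap in 17 members and in 23.6% of all genes. Here the roles parted: of the enzymes 1 was higher and 7 lower (median -0.063), and of the other hypoxia-induced genes 6 were higher and 1 lower (median 0.151), beside -0.006 for all genes. HIF1A, the regulator itself, was among the 6. With library sizes alone these medians were -0.008, 0.205 and 0.049. All comparisons with the vehicle share its 3 libraries. Without vehicle replicate 1, 6 members were higher and 6 lower, and PGAM1, LDHB, SLC2A1, HIF1A and KDM3A were no longer called.

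ALDOA was at 1492, 1263 and 1294 CPM in the vehicle and at 969 to 1086 CPM (median 1045) in the 8 libraries at 20 µg/mL. TPI1, which interconverts the triose phosphates, was at 1027, 859 and 794 CPM in the vehicle and at 684 to 734 CPM (median 697). ENO1, the main enolase, was at 1913, 1794 and 1766 CPM and at 1522 to 1654 CPM (median 1574). These 3 genes fell by 0.38 (SE 0.05), 0.35 (SE 0.06) and 0.21 (SE 0.04) on the log2 scale (edgeR adjusted p = 1.37e-05, 0.000331 and 0.000172). GAPDH, PGAM1, PKM and LDHB fell by between 0.12 and 0.20, and the LDHB call was lost in 9 refits that left out 1 library each. SLC2A1 fell by 0.10 (edgeR adjusted p = 0.0177) and was also lost without Bojungikgi-tang 20 µg/mL replicate 2 or 3.

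CA9 was the hypoxia-induced gene that fell, from 87.2, 71.7 and 65.3 CPM in the vehicle to 52.5 to 57.9 CPM (median 55.3), by 0.44 (SE 0.06, edgeR adjusted p = 1.66e-05). PDK1 was at 22.5, 25.5 and 26.6 CPM in the vehicle and at 28.0 to 31.4 CPM (median 30.2), and rose by 0.27 ± 0.05 (edgeR adjusted p = 0.000859). BNIP3L was at 13.2, 12.7 and 13.4 CPM and at 14.4 to 16.4 CPM (median 15.8), and rose by 0.27 ± 0.06 (edgeR adjusted p = 0.0019). P4HA1 rose by 0.24, KDM3A by 0.22, EGLN1 by 0.19, HIF1A by 0.17 and VEGFA by 0.13. ENO2 was the enzyme that rose, by 0.15 (edgeR adjusted p = 0.00737). NDRG1 was at 13.8, 14.0 and 14.0 CPM in the vehicle and at 14.4 to 19.0 CPM at 20 µg/mL and was not called (0.32 ± 0.12, adjusted p = 0.0569). It was called under 6 other settings, DESeq2 and only the compared groups among them, and without Bojungikgi-tang 20 µg/mL replicate 1.

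At 500 µg/mL against the vehicle, Banhasasim-tang had 10 members higher and 3 lower (8.16% and 7.12% of all genes), Sayeok-tang 16 and 0 (8.33% and 8.27%) and Bojungikgi-tang 12 and 7 (14.3% and 15.4%). With Banhasasim-tang these were 3 and 2 enzymes, 4 and 0 transport and flux genes and 3 and 1 other hypoxia-induced genes. With Sayeok-tang they were 5, 3 and 8, all higher. With Bojungikgi-tang they were 4 and 6, 2 and 0, and 6 and 1. HIF1A was among the higher ones with each extract. Each of these HIF1A calls was lost without vehicle replicate 1 (0.14, 0.12 and 0.12, edgeR adjusted p = 0.143, 0.215 and 0.16). Each was also lost with only the compared groups in the fit. With library sizes alone the Banhasasim-tang split was 6 and 5, beside 770 and 2691 of all 18783 genes. The Bojungikgi-tang split was then 14 and 5, beside 3181 and 2305 of all genes. Without Banhasasim-tang 500 µg/mL replicate 3 that extract had 7 and 0. For Bojungikgi-tang the numbers were 6 and 5 without vehicle replicate 1 and 7 and 4 without its own 500 µg/mL replicate 2.

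VEGFA was 0.80 ± 0.04 above the vehicle with Banhasasim-tang (edgeR adjusted p = 1.08e-12), 0.24 ± 0.04 with Sayeok-tang (adjusted p = 0.000321) and 0.02 ± 0.04 with Bojungikgi-tang (adjusted p = 0.791). NDRG1 was 1.22 ± 0.15 higher with Sayeok-tang (2.34-fold; edgeR adjusted p = 1.66e-05) and 0.50 ± 0.15 with Bojungikgi-tang (adjusted p = 0.0151), the latter not called without its replicate 2 (0.27, adjusted p = 0.132) or vehicle replicate 1 (0.48, adjusted p = 0.0634). With Banhasasim-tang NDRG1 gave 0.08 ± 0.17. PDK1 rose with all 3 extracts, by 0.33 ± 0.07, 0.44 ± 0.07 and 0.41 ± 0.06 in the same order, and P4HA1 by 0.29 ± 0.07, 0.45 ± 0.06 and 0.35 ± 0.06. The PDK1 call with Banhasasim-tang was lost without its replicate 3 (0.26, adjusted p = 0.0815). ENO2 rose by 0.53 ± 0.05, 0.47 ± 0.05 and 0.15 ± 0.05, the last not called without vehicle replicate 1 (0.14, adjusted p = 0.0718) or Bojungikgi-tang 500 µg/mL replicate 1 (0.13, adjusted p = 0.0754). CA9 fell by 0.33 (SE 0.08) with Banhasasim-tang and 0.44 (SE 0.07) with Bojungikgi-tang, and gave -0.16 ± 0.07 with Sayeok-tang (adjusted p = 0.123). Without vehicle replicate 1 the Banhasasim-tang value was -0.21, and without Banhasasim-tang 500 µg/mL replicate 3 it was -0.27 and not called (adjusted p = 0.103).

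Set side by side in each library, the 17 enzymes took 1.283% to 1.321% of counts in the vehicle, 1.165% to 1.223% in the 9 libraries at 20 µg/mL 1.281% to 1.322% with Sayeok-tang at 500 µg/mL and 1.148% to 1.167% with Banhasasim-tang at 500 µg/mL, where the mitochondrial ribosomal RNA share was high. The median deviation of the enzymes from their mean over all 30 libraries was 0.008 to 0.096 (log2) in the vehicle, -0.082 to -0.029 at 20 µg/mL and 0.078 to 0.097 with Sayeok-tang at 500 µg/mL. For the 12 other hypoxia-induced genes it was -0.175 to -0.108 in the vehicle, -0.034 to 0.044 at 20 µg/mL, 0.082 to 0.166 with Sayeok-tang at 500 µg/mL and -0.099 to -0.052 with Banhasasim-tang at 500 µg/mL. In the vehicle the median of the hypoxia-induced genes was thus low, with that of the enzymes at 0.096 in replicate 1 and 0.008 and 0.026 in replicates 2 and 3. Sayeok-tang 500 µg/mL libraries had both medians high. Banhasasim-tang 500 µg/mL libraries had the enzyme median at 0.026 to 0.068 and the median of the hypoxia-induced genes below 0. Of these 12 genes only VEGFA was called with Banhasasim-tang at 500 against 20 µg/mL, and it was higher. At 100 µg/mL the hypoxia-induced genes were at -0.064 to -0.055 with Banhasasim-tang, -0.055 to -0.026 with Bojungikgi-tang and -0.038 to 0.021 with Sayeok-tang. Bojungikgi-tang 500 µg/mL replicate 2 stood at 0.143 for the hypoxia-induced genes, against -0.044 and 0.006 in its other libraries. These medians describe libraries and were not tested. The ribosomal protein share set the vehicle apart: it was 5.561% to 6.91% in the vehicle and 3.775% to 5.516% in treated libraries. With Sayeok-tang it overlapped between the doses, at 5.098% to 5.257% at 20 µg/mL and 5.197% to 5.476% at 500 µg/mL. The colon epithelium markers summed to 11407 to 13358 CPM in the vehicle and to 10051 to 10697 CPM at 20 µg/mL. The part of either in the differences from the vehicle was not tested.

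**Figure D4:**
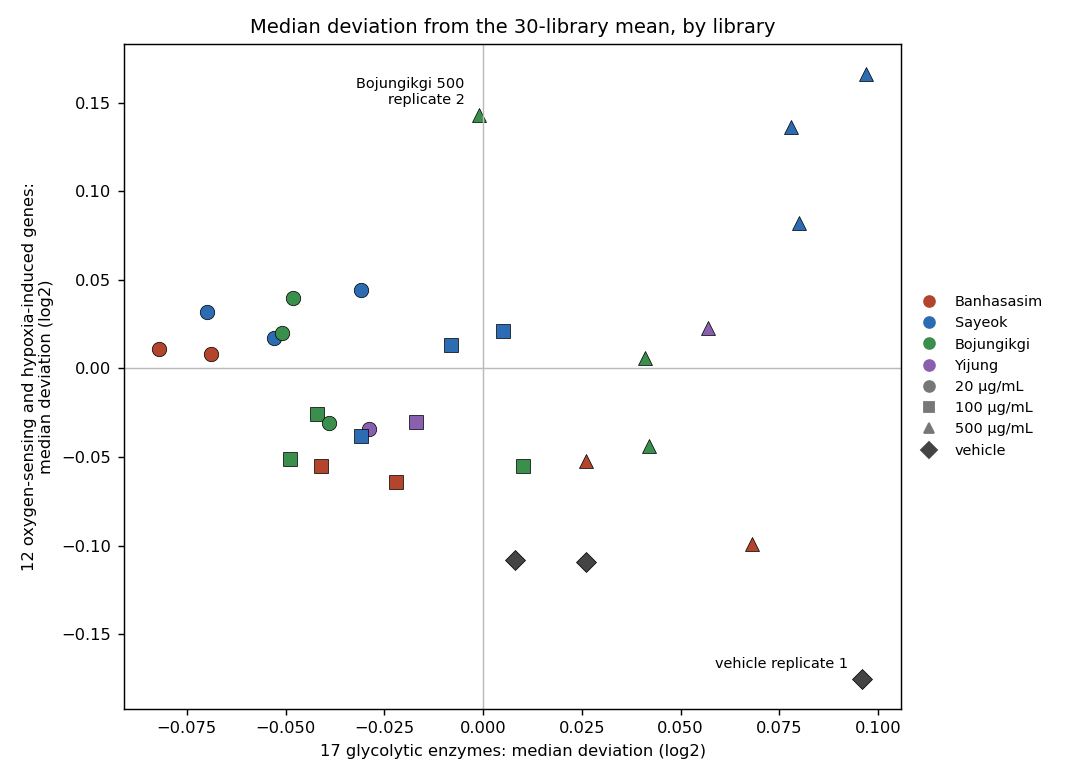
Each point is 1 of the 30 libraries: the median deviation (log2) of the 17 enzymes from their 30-library mean on the horizontal axis and that of the 12 oxygen-sensing and other hypoxia-induced genes on the vertical axis, with colour for extract (names without the ending -tang) and shape for dose. The vehicle libraries sit at the bottom (hypoxia-induced genes at -0.175 to -0.108), spread from 0.008 to 0.096 along the enzyme axis. The Sayeok-tang 500 µg/mL libraries sit at the top right (0.082 to 0.166).

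Other genes of the same pathways were listed apart from the members. Of 38 further glycolysis genes tested, Banhasasim-tang at 500 against 20 µg/mL had 1 higher and 3 lower (median 0.042), beside 3.82% and 4% of all genes. PCK2, the mitochondrial kinase that makes phosphoenolpyruvate, rose by 1.32 ± 0.08 (edgeR adjusted p = 1.07e-11). PGM2L1, which makes glucose bisphosphate, fell by 0.75 (SE 0.10) and the monocarboxylate transporter SLC16A7 by 0.64 (SE 0.12). Sayeok-tang had 1 higher and 2 lower (median 0.031), beside 1.14% and 2.03%: PDK4 rose by 0.36 ± 0.09, while SLC16A7 fell by 0.61 (SE 0.10) and PGM2L1 by 0.33 (SE 0.08). With Bojungikgi-tang edgeR and DESeq2 each called 0 of the 38, with 7 at an unadjusted p under 0.05 in edgeR (2428 of all 18783 genes).

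Of 60 further hypoxia pathway genes tested, Banhasasim-tang had 4 higher and 3 lower (median 0.017) against the same background. DDIT4, an inhibitor of mTORC1 that hypoxia and other stresses induce, rose by 2.09 ± 0.09 (edgeR adjusted p = 1.21e-14), the lipoprotein receptor VLDLR by 0.94 ± 0.11 and the EGFR inhibitor ERRFI1 by 0.44 ± 0.05. The sterol sensor INSIG1 fell by 0.41 (SE 0.05). Sayeok-tang had 2 higher and 1 lower (median 0.034), again beside 1.14% and 2.03%: DDIT4 rose by 0.42 ± 0.08 and ERRFI1 by 0.21 ± 0.04. Bojungikgi-tang had 0 higher and 2 lower (median -0.008), beside 0.602% and 1.16%: INSIG1 fell by 0.26 (SE 0.04) and the transcriptional repressor BHLHE40 by 0.36 (SE 0.08).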

How the data were processed

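The values are expected counts of each gene that the authors deposited, estimated with RSEM 1.3.3 after FastQC 0.11.9, Trim Galore 0.6.5 and STAR 2.7.3a on GRCh38 (hg38), per the submitters' processing notes. The directional libraries took 1 µg of RNA and were read as 100 bp pairs, per the labels. Of 270 columns 30 were used and 240 were not used here. Values were rounded by at most 0.5 (25.48% of the values above 0 were not whole). A symbol was found for 94.03% of IDs, from a list of gene names or, where that had none, from GENCODE 29.

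Genes passing filterByExpr (minimum count 10; 18783) were fitted in edgeR 4.0.16 (R 4.3.3) with TMM, 1 mean per group over all 30 libraries and robust quasi-likelihood dispersions (common dispersion 0.00407, with 17 residual degrees of freedom). Tests were two-sided, adjusted by Benjamini-Hochberg over all genes within each of 13 comparisons and called at an adjusted p under 0.05. SE is the absolute log2 fold change over the square root of F. CPM use TMM-scaled library sizes. The scripts were tested on simulated data. DESeq2 1.42.0, other scalings, other filters, a replicate block, fits of the compared groups alone and leaving out each replicate were the alternatives.

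The members and lists were chosen with earlier results of these data known. By rule, each member could be named, and values per library were given for up to 3 enzymes, 2 transport and flux genes and 5 other hypoxia-induced genes with the smallest p per 500 against 20 µg/mL comparison. Same-numbered replicates did not deviate together in the compared groups, so the block was not used in the main tests. Counting floors cover counting error only.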

Additional observations from a re-analysis of the deposited data

Results flagged for a closer look

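The change of VEGFA from 20 to 500 µg/mL differed between extracts by the test of the difference itself, by 0.53 ± 0.06 (log2) for Banhasasim-tang minus Sayeok-tang and by 0.75 ± 0.06 for Banhasasim-tang minus Bojungikgi-tang. Both were called by edgeR under every setting run. The changes of ENO2 and SLC2A1 differed between Banhasasim-tang and Bojungikgi-tang by 0.33 ± 0.07 and 0.23 ± 0.06, and both calls were lost when certain single libraries were left out, as given above.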

How the results depend on the processing

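Of 86 called gene values, 0 reversed under the alternatives run. The number of called values that passed the threshold in the main edgeR test and no longer did was 3 with size factors by RLE, 14 with library sizes alone, 3 without the mitochondrial ribosomal RNA counts, 18 without a low-count filter, 0 of 84 with a mean of at least 5 CPM, 0 with DESeq2 and 38 with only the compared groups in the fit. Leaving out each replicate in turn lost 119 of 594.

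The count of members called for Sayeok-tang 500 against 20 µg/mL lay between 5 and 6 with a replicate left out. For Bojungikgi-tang it was 0 with only the compared groups, 6 with DESeq2 and 0 to 2 with a replicate left out. Against the vehicle it was 5 for Banhasasim-tang and 0 for Bojungikgi-tang with only the compared groups, and 7 to 14 and 11 to 18 with a replicate left out. For Banhasasim-tang minus Sayeok-tang it was 2 with library sizes alone, no low-count filter, a mean of at least 5 CPM, only the compared groups, DESeq2 or the replicate block, and 1 to 2 with a replicate left out. For Banhasasim-tang minus Bojungikgi-tang it was 1 with library sizes alone or only the compared groups, and 1 to 3 with a replicate left out. For Sayeok-tang minus Bojungikgi-tang it was 2 with no low-count filter and 1 with DESeq2. The cause of these moves was not tested.

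With the replicate number as a block, 1 of 86 called values was lost (LDHB at 20 µg/mL against the vehicle), PKM was also called for Banhasasim-tang 500 against 20 µg/mL, ALDOA for Sayeok-tang 500 µg/mL against the vehicle and NDRG1 for Banhasasim-tang minus Sayeok-tang, and no other count of members moved by over 1.5 times. Leaving out a replicate leaves 1 library in a Banhasasim-tang group, which is then assumed to vary like the other groups. Counting precision was lowest for ANKRD37, near 1 CPM.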
